A study of Mus musculus with 2 samples.

Results

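The receptor chains examined here were Il7r, Il2ra, Il2rb, Il2rg, Il4ra, Il21r, Il9r and Il10ra, 8 of the 31053 genes in the feature list, taken by symbol. They were followed through single-cell RNA sequencing of sorted immune cells from the small-intestinal lamina propria, the connective tissue under the gut epithelium. One library came from Zfp36-/- mice (KO) and one from wild-type mice (WT), on the C57BL/6 strain, with cells of 4 mice per genotype pooled before encapsulation; no treatment and no age is given for these samples. Zfp36 encodes tristetraprolin, which binds AU-rich elements in 3' UTRs and promotes decay of the transcript, and its loss here is not limited to any cell type. The sort kept live CD45+ cells that carried CD90.2 and CD127 and lacked CD3, TCRβ and other lineage markers, a gate meant for innate lymphoid cells (ILCs). The mice within a pool cannot be separated.

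Il2rg encodes the common gamma chain, which pairs with private chains to form the receptors for IL-2, IL-4, IL-7, IL-9, IL-15 and IL-21 and signals through the kinase JAK3. Il7r (CD127) serves IL-7 and, with Crlf2, TSLP; Il2rb serves IL-2 and IL-15, and Il2ra (CD25) raises the affinity for IL-2. Il10ra is a relative outside the gamma chain family that binds IL-10 and pairs with Il10rb. In the gut, IL-7 sustains innate lymphoid cells, IL-9 acts on group 2 cells (ILC2), and IL-10 restrains macrophages.

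After filtering, 3334 KO and 3360 WT cells remained, with medians of 5336.5 KO and 5292.5 WT unique molecular identifiers (UMIs) per cell and 2 barcodes shared by the libraries. Marker UMIs placed 92.8% of KO and 91.8% of WT cells in a gate. The ILC2 gate held 1195 KO and 664 WT cells, the ILC3 gate 1110 KO and 918 WT cells, and the ILC1/NK gate 177 KO and 176 WT cells. ILC3 were divided into LTi cells with a Ccr6 or Cd4 UMI (314 KO and 396 WT cells), NCR+ cells with an Ncr1 UMI (349 KO and 291 WT cells) and other ILC3 with neither or both (447 KO and 231 WT cells). T cells were present despite the sort and lay almost all in the WT library: CD8- alpha-beta T cells numbered 4 in KO and 695 in WT, Treg cells 0 in KO and 105 in WT, CD8 T cells 1 in KO and 134 in WT, and gamma-delta T cells 34 in KO and 85 in WT. There were also macrophages (211 KO and 137 WT cells), dendritic cells (195 KO and 39 WT cells) and B/plasma cells (165 KO and 133 WT cells). A Y-linked UMI was found in 534 of 3334 KO cells and in 4 of 3360 WT cells, so the pools differed in sex makeup as well as genotype.

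Levels are given as UMIs per 1000000 UMIs of the gate (CPM), with exact Poisson 95% intervals, and ratios with exact 95% intervals from the binomial split of a gene's UMIs; both cover counting error only. Zfp36 itself stood at 308 CPM in KO and 1185 CPM in WT ILC3, and at 340 CPM in KO and 728 CPM in WT ILC2. The labels do not say which stretch of the gene is missing, so 3' tags that remain do not check the genotype label. With 1 library per genotype there was no test between genotypes, and a difference between the libraries cannot be told apart from one of pool, sex makeup or preparation. A ratio was called higher or lower at 1.5-fold or more with an interval that left out 0 on the log2 scale, for genes with at least 20 UMIs in gates with at least 50 cells in each library. Levels are compared between gates for one gene, not between genes.

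The 3' UTRs of the 8 genes were searched for TATTTAT, a core AU-rich element to which tristetraprolin is known to bind, on the transcript strand of the longest annotated 3' UTR (GENCODE, GRCm38). Il7r, Il9r and Il10ra held it and the other 5 did not, while 27.8% of 20797 genes with a 3' UTR of at least 30 bases held it. Il7r (ENSMUSG00000003882, minus strand, chr15:9505788-9530176) had 2 copies in 2569 bases. Il9r (ENSMUSG00000020279, minus strand, chr11:32187541-32200279) had 1 copy in 3071 bases. Il10ra (ENSMUSG00000032089, minus strand, chr9:45253837-45269149) had 3 copies in 1693 bases, and the copies at 1390 and 1394 overlap. Among genes with a 3' UTR within 0.5 log2 units of the same length, 48.1% held the motif for Il7r, 52.9% for Il9r and 37.1% for Il10ra. A match describes letters and is not a binding site. The sites are shown because these are the 3 receptor genes in which such an element can be read; they run 5' to 3' with 11 flanking bases on each side, the motif is in capitals, and the number after each name is the UTR position of the first capital.
Il7r 854: ttcaaattgacTATTTATccagcactata
Il7r 1967: tttcctcttggTATTTATaaaggaaaacc
Il9r 2963: aaggctttctaTATTTATacatcttcaaa
Il10ra 1390: ctgggaaccttTATTTATttatttgctca
Il10ra 1394: gaacctttattTATTTATttgctcactta
Il10ra 1410: atttgctcactTATTTATtgaggaagcag

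Il2rg, the shared chain (ENSMUSG00000031304, minus strand, chrX:101264378-101268255), had overlapping intervals in all innate lymphoid gates of the KO library. In WT, ILC1/NK cells lay below LTi and NCR+ cells. Its level was 532 CPM in KO and 537 CPM in WT ILC3, 541 CPM in KO and 480 CPM in WT ILC2, and 552 CPM (504 to 605) in KO and 433 CPM (393 to 475) in WT ILC1/NK cells. WT LTi cells had 561 CPM (526 to 598). The 3 ILC3 subsets lay between 516 and 544 CPM in KO and between 515 and 561 CPM in WT, with intervals that overlapped. WT T cell gates ran from 289 CPM in CD8 T cells to 481 CPM in Treg cells. B/plasma cells had 67.2 CPM in KO and 59.1 CPM in WT.

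After every cell was thinned to 2000 UMIs, an Il2rg UMI was found in 64.1% of KO and 66.0% of WT ILC3 and in 64.4% of KO and 60.3% of WT ILC2. In ILC1/NK cells the share was 69.5% (61.9 to 76.3%) in KO and 54.1% (46.3 to 61.7%) in WT, intervals that did not overlap. Without thinning, 88.7% of KO and 88.1% of WT ILC1/NK cells had an Il2rg UMI. The share in B/plasma cells was 13.3% in KO and 14.3% in WT at 2000 UMIs. That gate is deep, with median depths of 30955 UMIs in KO and 38353 UMIs in WT, against 3817.5 UMIs in KO and 4471 UMIs in WT ILC3. Since B cells are known to use Il2rg, Il4ra and Il21r, the gate serves at most as a background for the other chains. It is not an empty one, and Il9r, for example, had 40 KO and 24 WT UMIs there.

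**Figure D1:**
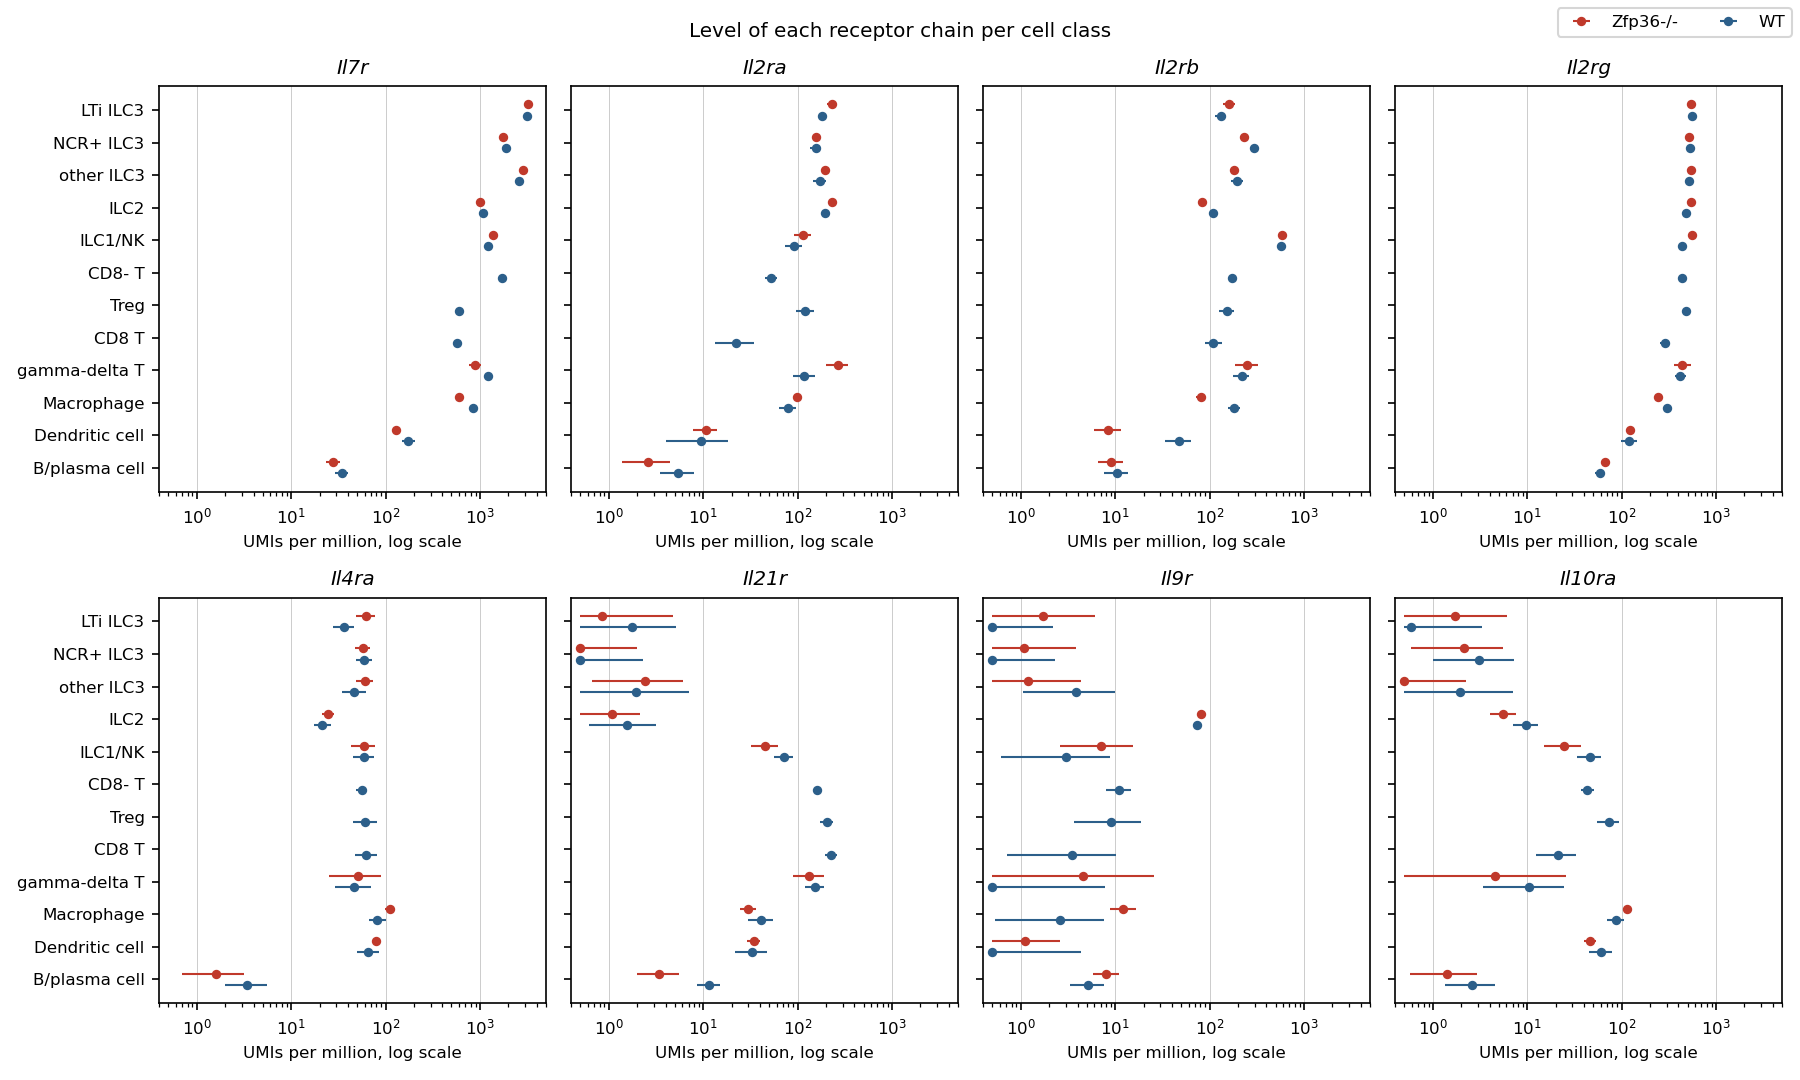
Level of each receptor chain in CPM (log axis) by cell gate, for the KO library (red, upper point) and the WT library (blue, lower point), with exact Poisson 95% intervals; gates with fewer than 30 cells are not drawn and gates without a UMI sit at the left edge. Il2rg lay between 516 and 552 CPM in the KO and between 433 and 561 CPM in the WT innate lymphoid gates, Il9r stood out in ILC2, Il2rb in ILC1/NK cells, Il7r in LTi cells and Il21r in WT T cells.

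Il7r, the chain whose protein was used in the sort, was highest in ILC3. Its level was 2508 CPM (2463 to 2553) in KO and 2553 CPM (2505 to 2601) in WT ILC3. ILC2 had 997 CPM in KO and 1084 CPM in WT, so ILC3 exceeded them by 2.52-fold in KO and 2.36-fold in WT. Among ILC3, LTi cells had 3196 CPM in KO and 3132 CPM in WT, other ILC3 2848 CPM in KO and 2625 CPM in WT, and NCR+ cells 1773 CPM in KO and 1899 CPM in WT. The subsets stood in that order in both libraries, with intervals that did not overlap within a library.

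ILC1/NK cells had 1373 CPM of Il7r in KO and 1218 CPM in WT, and gamma-delta T cells 882 CPM in KO and 1204 CPM in WT. In WT these neighbours in the order did not differ beyond their intervals. WT CD8- T cells had 1701 CPM, WT Treg cells 607 CPM and WT CD8 T cells 567 CPM, and the intervals of Treg and CD8 T cells overlapped. Because CD127 was part of the sort, cells of any type with little of it were left out, and all Il7r levels describe the sorted cells.

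Cell by cell, Il7r was found most often in ILC3, while its shares in ILC2 and ILC1/NK cells were close. At 2000 UMIs a UMI was found in 93.5% of KO and 95.9% of WT ILC3, in 80.0% of KO and 81.6% of WT ILC2, and in 79.0% of KO and 75.6% of WT ILC1/NK cells. The share was 5.45% in KO and 5.26% in WT B/plasma cells, and without thinning 10.9% in KO and 20.3% in WT. The median LTi cell held 6 Il7r UMIs in both libraries, the median NCR+ cell 3 and the median ILC2 2. Cells with 10 or more made up 22.5% of KO and 16.5% of WT LTi cells, and 0.423% of KO and 0.304% of WT ILC2.

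Il2rb (ENSMUSG00000068227, minus strand, chr15:78479256-78495271), the chain for IL-15 and IL-2, was highest in ILC1/NK cells, at 579 CPM (529 to 633) in KO and 567 CPM (522 to 616) in WT. ILC3 had 197 CPM in KO and 207 CPM in WT. ILC2 had 82.6 CPM in KO and 108 CPM in WT, so ILC1/NK cells exceeded them by 7.02-fold in KO and 5.23-fold in WT. Among ILC3 the order was the reverse of that of Il7r: NCR+ cells had 231 CPM in KO and 295 CPM in WT, and LTi cells 162 CPM in KO and 132 CPM in WT. NCR+ over LTi was 1.43-fold in KO and 2.23-fold in WT. At 2000 UMIs, Il2rb was found in 64.1% of KO and 62.2% of WT ILC1/NK cells, in 12.9% of KO and 19.1% of WT ILC2, and in 2.42% of KO and 0.752% of WT B/plasma cells. WT T cell gates ran from 109 CPM in CD8 T cells to 218 CPM in gamma-delta T cells.

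Il2ra (ENSMUSG00000026770, plus strand, chr2:11642807-11693193), which lifts the affinity for IL-2, was highest in ILC2 and ILC3 among the innate lymphoid classes. ILC2 had 233 CPM (222 to 245) in KO and 194 CPM (181 to 207) in WT, ILC3 190 CPM in KO and 170 CPM in WT, and ILC1/NK cells 114 CPM in KO and 90.7 CPM in WT. KO LTi cells, at 231 CPM, matched KO ILC2 within their intervals. The Treg gate, for which CD25 is a classical marker, had 121 CPM (97.4 to 148) in WT, below WT ILC2. These Treg cells had come through a sort for CD127 and against CD3 and TCRβ. Their level describes the sorted cells, not gut Treg cells in general. In graph cluster 13, which held 83.8% of WT Treg-gate cells, Il2ra stood at 177 CPM (147 to 212) in WT, which overlapped WT ILC2. WT CD8- T cells had 52.4 CPM, and 62.0% of their UMIs came from the 5% of cells richest in Il2ra. Gamma-delta T cells had 266 CPM in KO and 117 CPM in WT, but 39.7% of the KO UMIs came from 1 of the 34 cells. At 2000 UMIs, Il2ra was found in 36.5% of KO and 30.9% of WT ILC2 and in 28.8% of WT Treg cells. In B/plasma cells at that depth it was found in 0 of 165 KO cells, which allows a share of cells with a UMI of up to 1.82%, and in 0.752% of WT cells. Without thinning, 4.85% of KO and 10.5% of WT B/plasma cells had an Il2ra UMI.

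**Figure D2:**
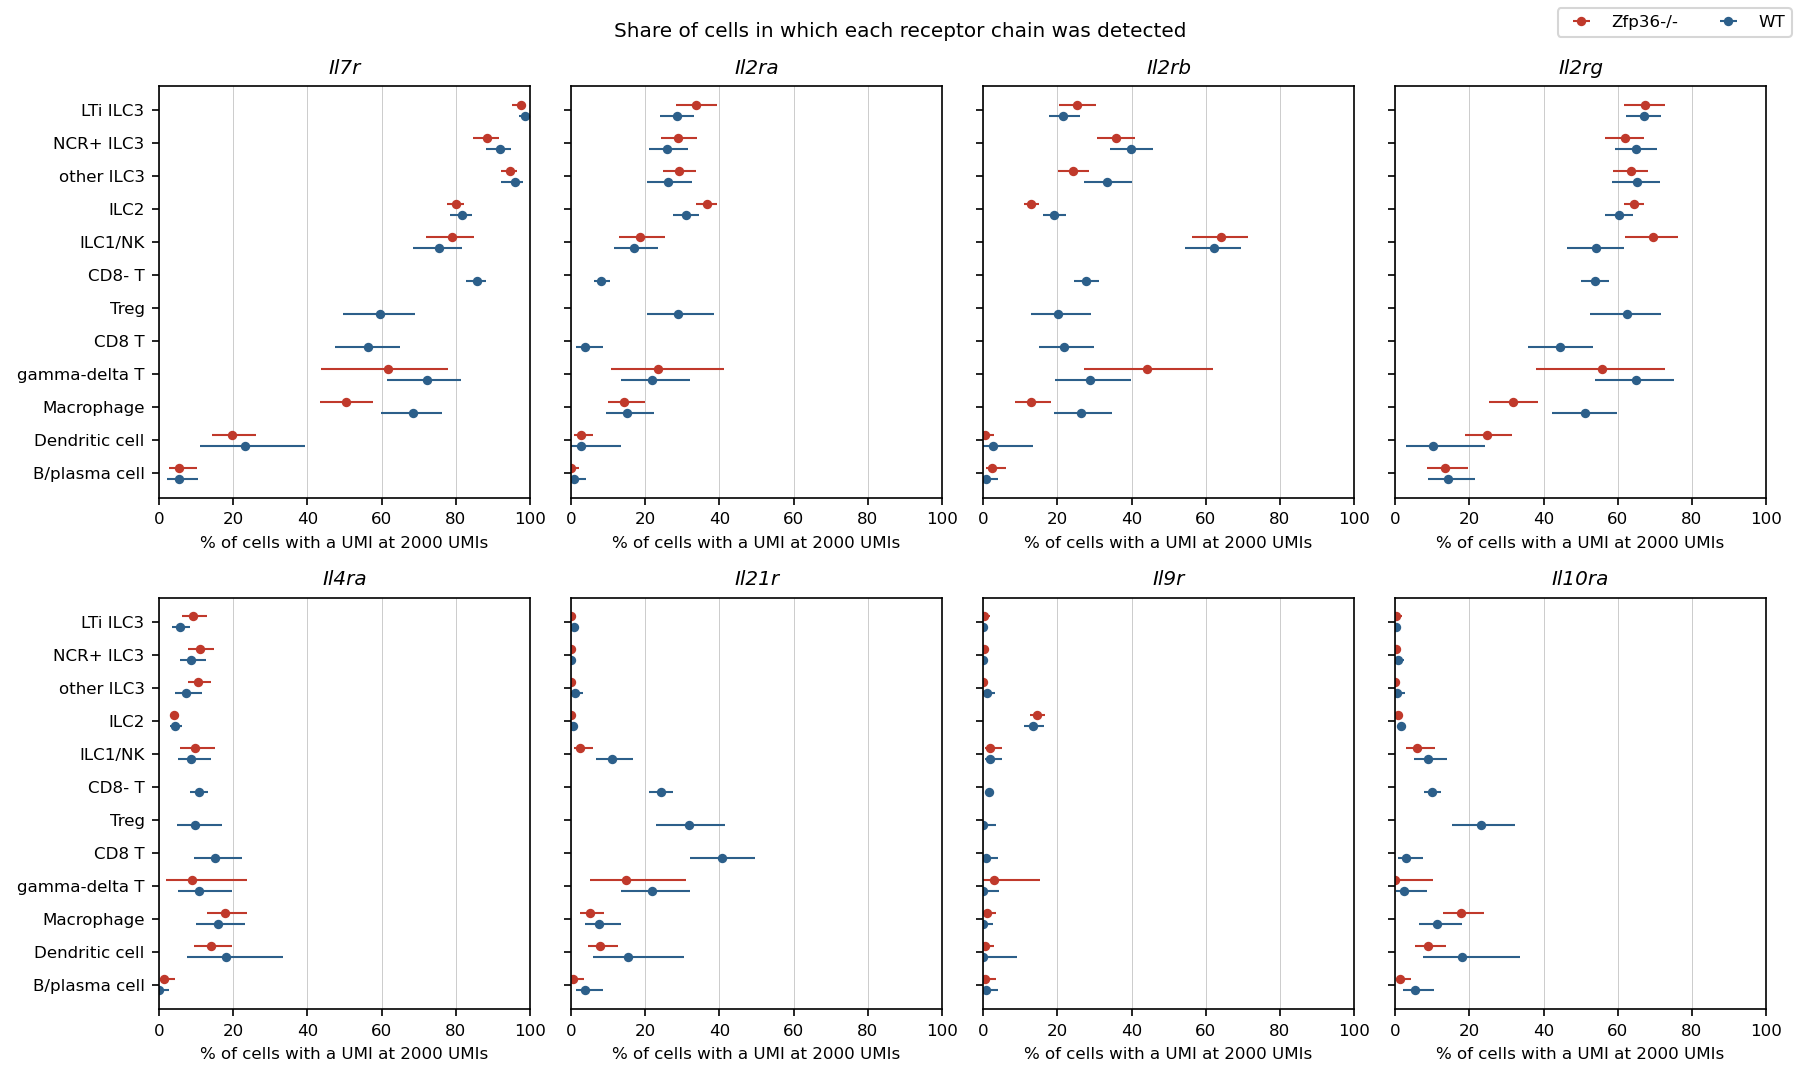
Share of cells (%) with at least 1 UMI of each chain after each cell was thinned to 2000 UMIs, by gate, for the KO library (red, upper point) and the WT library (blue, lower point), with exact binomial 95% intervals; gates with fewer than 30 cells are not drawn. The Il7r share was 75.6% or more in every ILC gate, against 5.45% in KO and 5.26% in WT B/plasma cells.

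Il9r, the private chain of the IL-9 receptor, lay almost only in ILC2 among the innate lymphoid classes. ILC2 had 81.3 CPM (75.0 to 88.1) in KO and 74.3 CPM (66.6 to 82.7) in WT, from 600 KO and 336 WT UMIs. ILC3 had 6 UMIs in KO and 4 in WT, so ILC2 exceeded them by 63.7-fold (29.1 to 174) in KO and 80.6-fold (31.2 to 298) in WT. ILC1/NK cells had 6 UMIs in KO and 3 in WT. WT CD8- T cells, next in the WT order, had 42 UMIs over 695 cells. A UMI was found in 14.6% of KO and 13.5% of WT ILC2 at 2000 UMIs, and in 37.2% of KO and 34.6% of WT ILC2 without thinning. In B/plasma cells the share at 2000 UMIs was 0.606% in KO and 0.752% in WT. Their Il9r level was 8.07 CPM in KO and 5.18 CPM in WT. That was above ILC3, at 1.28 CPM in KO and 0.922 CPM in WT.

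Il4ra (ENSMUSG00000030748, plus strand, chr7:125552120-125579474), which serves IL-4 and IL-13, was found in every ILC and T cell gate of 30 or more cells and was lowest, among them, in ILC2. B/plasma cells had less, at 1.61 CPM in KO and 3.45 CPM in WT. ILC2 had 24.5 CPM (21.1 to 28.4) in KO and 21.5 CPM (17.4 to 26.2) in WT. ILC3 had 59.6 CPM in KO and 47.3 CPM in WT, which was 2.43-fold above ILC2 in KO and 2.20-fold in WT. ILC1/NK cells had 58.5 CPM in KO and 58.8 CPM in WT. Macrophages had 111 CPM (99.9 to 122) in KO and 81.8 CPM (66.1 to 100.1) in WT. The WT interval overlapped those of WT CD8 T, Treg and gamma-delta T cells. It lay above that of WT CD8- T cells (48.8 to 64.1).

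Il21r (ENSMUSG00000030745, plus strand, chr7:125603429-125633570), the receptor for the T cell cytokine IL-21, was highest in the T cell gates, though not in all T cells. WT levels were 225 CPM in CD8 T, 205 CPM in Treg and 160 CPM in CD8- T cells, and gamma-delta T cells had 133 CPM in KO and 153 CPM in WT. The gamma-delta gate was mixed, and 38.8% of its WT cells lay in graph cluster 14, led by Trdc and Cd163l1. Over all WT cells of that cluster, gamma-delta or not, Il21r stood at 21.1 CPM (10.5 to 37.8). ILC1/NK cells had 45.6 CPM (32.5 to 62.4; 39 UMIs) in KO and 71.8 CPM (56.2 to 90.4; 72 UMIs) in WT. In ILC2 there were 8 UMIs in KO and 7 in WT, in ILC3 5 in KO and 5 in WT, and in NCR+ cells 0 in both, where 3 counts would be 1.61 CPM in KO and 1.86 CPM in WT. ILC1/NK cells exceeded ILC3 by 42.9-fold (16.9 to 139) in KO and 62.3-fold (25.5 to 198) in WT.

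Il10ra, the IL-10 binding chain, stood at 114 CPM (103 to 126) in KO and 86.2 CPM (70.0 to 105) in WT macrophages. WT Treg cells had 72.6 CPM, which overlapped WT macrophages. ILC1/NK cells had 24.6 CPM (15.2 to 37.6) in KO and 45.9 CPM (33.6 to 61.2) in WT. ILC2 had 5.56 CPM in KO and 9.73 CPM in WT, and ILC3 had 6 UMIs in KO and 8 in WT. ILC1/NK cells exceeded ILC3 by 19.2-fold (7.51 to 58.3) in KO and 24.9-fold (11.6 to 61.0) in WT.

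Between the libraries, most ratios of the chains in ILCs were not called, as for most genes. The 3 ILC classes gave 19 ratios, of which 0 were called higher and 3 lower. Of all genes, 17.6% in ILC2, 17.6% in ILC3 and 14.8% in ILC1/NK cells were called in either direction. Lower calls made up 2.88%, 4.01% and 3.64% of genes in the same order. In ILC3, 0 of 5 chains that passed the UMI filter were called, where 17.6% of 10723 genes were called in either direction, 13.6% higher and 4.01% lower. The log2 ratios of KO over WT in ILC3 were -0.03 (-0.06 to 0.01) for Il7r, -0.02 (-0.10 to 0.07) for Il2rg, -0.07 (-0.21 to 0.06) for Il2rb, 0.16 (0.02 to 0.30) for Il2ra and 0.33 (0.07 to 0.60) for Il4ra. On counting error alone, the intervals of Il7r, Il2rg, Il2rb and Il2ra leave out a 1.5-fold difference, and that of Il4ra does not. Il21r, Il9r and Il10ra had too few UMIs for a ratio in ILC3.

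The ratios of all genes were shifted upward in the KO library, with medians of 0.18 in ILC2, 0.16 in ILC3 and 0.12 in ILC1/NK cells. Higher calls made up 83.7% of all calls in ILC2, 77.2% in ILC3 and 75.4% in ILC1/NK cells, and 55.3%, 51.1% and 56.7% of them once ratios were centred on the median. Relative to these medians, Il7r was at -0.30 in ILC2 and -0.18 in ILC3, and Il2ra at 0.09 in ILC2 and 0.00 in ILC3. The small positive ratios of Il2rg and Il9r in ILC2 turned to -0.01 and -0.05.

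In ILC2, 1 of 7 chains was called lower and 0 higher, where 2.88% of 10479 genes were called lower, 14.8% higher and 17.6% in either direction; centred on the median, 6.09% were lower. The one was Il10ra, with 41 KO and 44 WT UMIs and a log2 ratio of -0.81 (-1.46 to -0.16). Summed T cell markers stood at 1457 CPM in KO and 2220 CPM in WT cells of this gate, with 1 of 12 markers at 0 in KO and 0 in WT, and their part in the Il10ra ratio was not tested. Il9r had a log2 ratio of 0.13 (-0.07 to 0.33), Il2ra 0.27 (0.15 to 0.38), Il2rg 0.17 (0.10 to 0.25), Il4ra 0.19 (-0.17 to 0.56) and Il7r -0.12 (-0.17 to -0.07). Il2rb was at -0.39 (-0.57 to -0.22), short of the 1.5-fold line.

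The level of Il2rb differed between clusters of ILC2-like cells. Graph clustering without the 8 genes split ILC2-like cells into cluster 0 (led by Homer2 and Rxrg), cluster 5 (Il13, Areg, Csf2 and Il5) and cluster 6 (Socs2, Gldc, Acbd7 and Cpne7). Cluster 6 had Il2rb at 371 CPM in KO and 344 CPM in WT. Cluster 0 had 43.8 CPM in KO and 54.3 CPM in WT, and cluster 5 had 67.5 CPM in KO and 64.5 CPM in WT. These values cover all cells of a cluster, not ILC2-gate cells alone. Cluster 6 held 276 KO and 175 WT cells. Of these, 144 KO and 122 WT cells were in the ILC2 gate, and 50 KO and 19 WT cells in the ILC1/NK gate. Cluster 6 supplied 12.1% of KO and 18.4% of WT cells of the ILC2 gate. Within clusters the log2 ratio of Il2rb was -0.31 (-0.66 to 0.04) in cluster 0, 0.06 (-0.31 to 0.44) in cluster 5 and 0.11 (-0.09 to 0.30) in cluster 6, all with 0 inside the interval. The ratio in cluster 0, which supplied 60.6% of KO and 44.4% of WT cells of the gate, was nearly that of the whole gate on fewer UMIs. By single genes, Il2rb was called lower in ILC2 without an Il13 or Areg UMI (417 KO and 320 WT UMIs, -0.63, -0.84 to -0.41), and stood at -0.15 (-0.45 to 0.16) in those with one and at -0.36 (-0.55 to -0.17) in those with a Klrg1 UMI. The part of the makeup of the gate in the Il2rb ratio was not tested.

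The same clusters divided the IL-2, IL-9 and IL-10 chains. Il2ra was highest in cluster 5, at 361 CPM in KO and 286 CPM in WT, against 203 CPM in KO and 140 CPM in WT cells of cluster 0 and 126 CPM in KO and 125 CPM in WT cells of cluster 6. Its log2 ratio was 0.54 (0.34 to 0.73) in cluster 0, 0.34 (0.17 to 0.51) in cluster 5 and 0.01 (-0.33 to 0.34) in cluster 6, without a call in any. Il9r ran from 97.2 CPM in KO and 90.2 CPM in WT cells of cluster 0 to 26.0 CPM in KO and 32.0 CPM in WT cells of cluster 6. Il10ra had 28 KO and 34 WT UMIs in cluster 5 (14.6 CPM in KO and 19.6 CPM in WT) and 10 KO and 11 WT UMIs in cluster 0 (2.22 CPM in KO and 5.48 CPM in WT). Cluster 5 supplied 24.9% of KO and 35.5% of WT cells of the ILC2 gate, and its Il10ra ratio of -0.42 (-1.20 to 0.34) had 0 inside the interval.

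**Figure D3:**
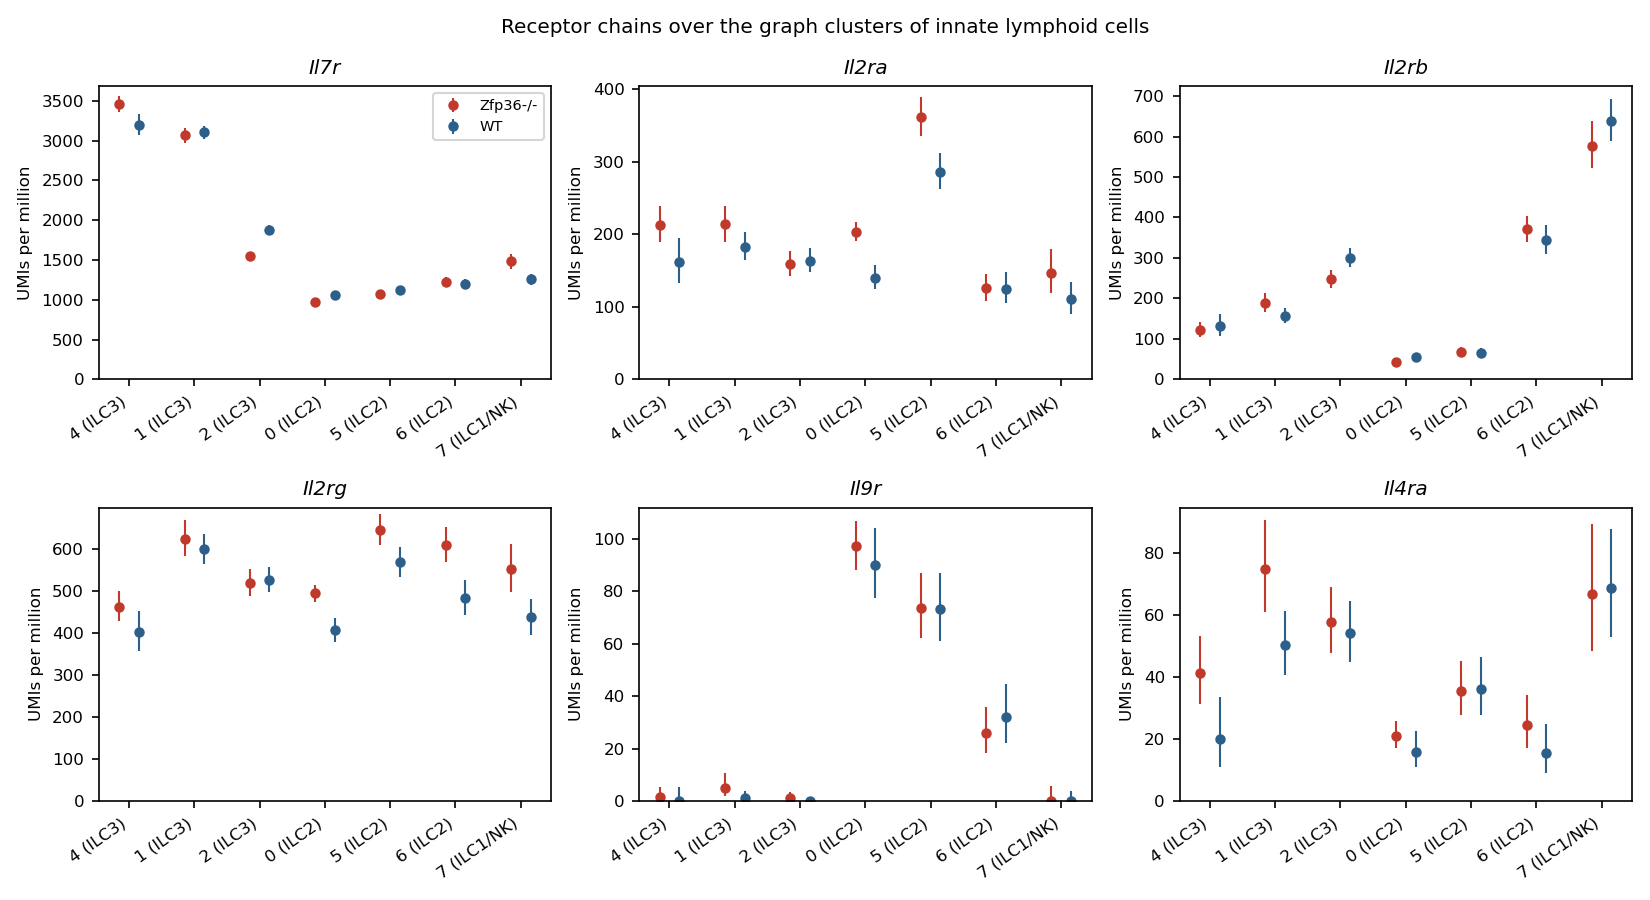
Level in CPM (linear axis) of 6 receptor chains over the 7 graph clusters of innate lymphoid cells, for the KO library (red, left) and the WT library (blue, right), with exact Poisson 95% intervals. Among ILC2-like clusters, cluster 6 had Il2rb at 371 CPM in KO and 344 CPM in WT, above clusters 0 and 5, and less Il9r than either.

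Among ILC3 subsets 1 of 15 ratios was called. In LTi cells 1 of 5 chains was called higher and 0 lower, where 14.1% of 9136 genes were called higher, 4.16% lower and 18.2% in either direction. It was Il4ra, at 62.2 CPM (48.8 to 78.2; 73 UMIs) in KO and 36.1 CPM (27.6 to 46.3; 61 UMIs) in WT, with a log2 ratio of 0.79 (0.28 to 1.30), or 0.63 relative to the median of all genes. At 2000 UMIs it was found in 27 of 298 KO LTi cells (6.06 to 12.9%) and in 22 of 393 WT LTi cells (3.54 to 8.35%), and these intervals overlapped. LTi cells were split mainly between cluster 1 (Il22, Ccr6), with 41.4% of KO and 70.7% of WT LTi cells, and cluster 4 (Fermt2, Slc6a7), with 56.4% of KO and 29.0% of WT LTi cells. Il4ra stood at 74.8 CPM in KO and 50.3 CPM in WT cells of cluster 1, a ratio of 0.57 (0.16 to 0.99), and cluster 4 had 58 KO and 14 WT UMIs, a ratio of 1.04 that was called higher. These values cover all cells of a cluster, not LTi cells alone. With graph clusters in place of the gate the ratio was 0.54, short of the line. Within the gate it was 0.52 (-0.07 to 1.12) in LTi cells with a Ccr6 UMI only, without a call, and 1.60 (0.48 to 2.82) in those with a Cd4 UMI, from 24 KO and 10 WT UMIs. Summed macrophage markers stood at 270 CPM in KO and 47.0 CPM in WT LTi cells with a Cd4 UMI. In LTi cells with a Ccr6 UMI only they stood at 55.4 CPM in KO and 37.7 CPM in WT. Their part in the Il4ra ratios was not tested.

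In NCR+ cells 0 of 5 chains were called, where 16.1% of 9222 genes were called in either direction, 12.7% higher and 3.43% lower. Il4ra stood at 57.3 CPM in KO and 59.5 CPM in WT NCR+ cells. The chain with the largest NCR+ shift was Il2rb, with a log2 ratio of -0.35 (-0.54 to -0.16). In other ILC3, 0 of 5 chains were called, where 17.3% of 9081 genes were called in either direction, 13.9% higher and 3.38% lower.

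In ILC1/NK cells 2 of 7 chains were called lower and 0 higher, where 3.64% of 7770 genes were called lower, 11.2% higher and 14.8% in either direction; centred on the median, 5.79% were lower. Il21r had a log2 ratio of -0.65 (-1.25 to -0.07). Il10ra, with 21 KO and 46 WT UMIs, had one of -0.90 (-1.72 to -0.13). At 2000 UMIs, Il21r was found in 4 of 167 KO cells (2.40%, 0.656 to 6.02%) and in 19 of 172 WT cells (6.78 to 16.7%), intervals that did not overlap. Without thinning the shares were 10.7% in KO and 21.0% in WT. The 5% of cells richest in Il21r gave 74.4% of its KO and 44.4% of its WT UMIs. Without those cells its ratio was -1.73, and with at least 4 markers per gate it was -0.58, just short of the line.

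The ILC1/NK gate also differed in makeup. Cluster 6, in which Il21r had 0 KO and 1 WT UMIs, supplied 28.2% of KO and 10.8% of WT cells. Cluster 7, led by Klrc2 and Klre1, supplied 65.0% of KO and 74.4% of WT cells. Within cluster 7, Il21r stood at 57.6 CPM in KO and 87.2 CPM in WT, a log2 ratio of -0.60 (-1.19 to -0.02) that was called lower, and Il10ra at 34.9 CPM in KO and 40.9 CPM in WT, a ratio of -0.23 (-1.04 to 0.55) without a call. Summed T cell markers stood at 1614 CPM in KO and 2108 CPM in WT cells of the ILC1/NK gate, with 2 of 12 markers at 0 in KO and 1 in WT, and their part in the Il21r and Il10ra ratios was not tested. The other 5 chains had log2 ratios from -0.01 (-0.58 to 0.56) for Il4ra to 0.35 (0.16 to 0.54) for Il2rg, with 0.03 (-0.15 to 0.21) for Il2rb.

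**Figure D4:**
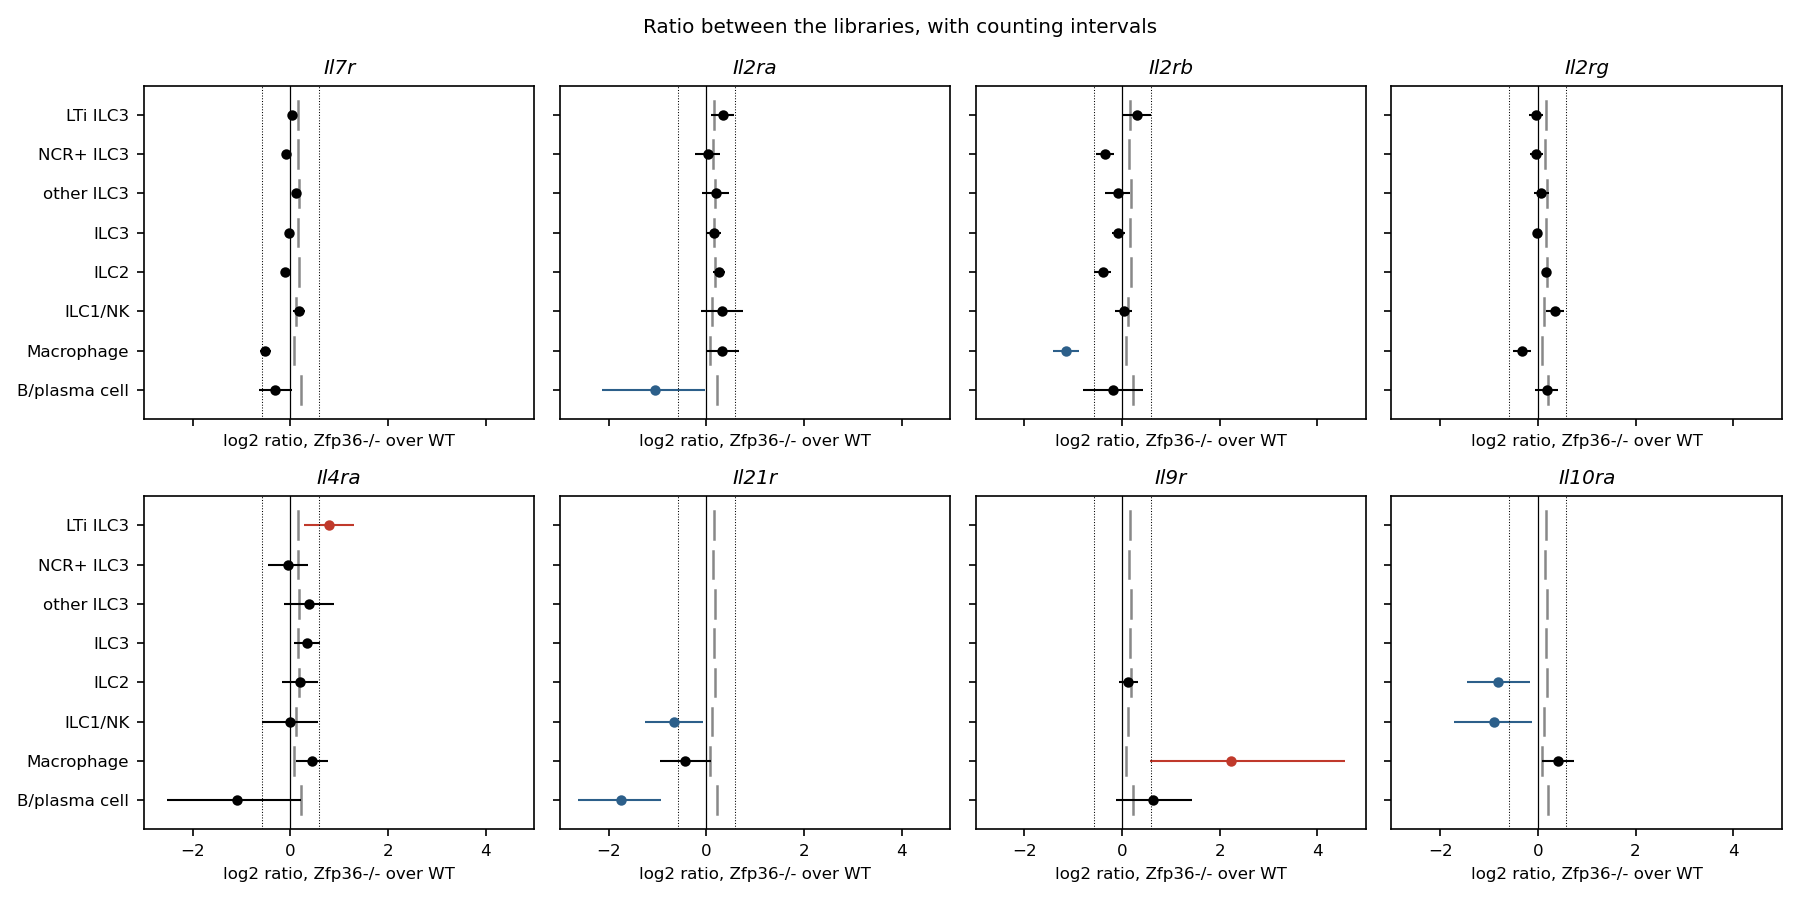
Log2 ratio of KO over WT of each chain by gate, with exact 95% counting intervals; red points were called higher, blue points lower and black points neither, dotted lines mark 1.5-fold and grey ticks the median of all genes in the gate. In the ILC gates the calls were Il4ra in LTi cells (0.79), Il10ra in ILC2 (-0.81) and in ILC1/NK cells (-0.90), and Il21r in ILC1/NK cells (-0.65).

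Macrophages and dendritic cells had passed a sort for CD90.2 and CD127, and several receptor values of both gates moved with lymphoid transcripts. Of 12 lymphoid markers, among them Thy1, Gata3, Klrg1, Il23r, Cd3e, Tbx21 and Klrb1c, 3 or more had a UMI in 47.9% of KO and 67.2% of WT macrophage-gate cells, against 4.85% of KO and 16.5% of WT B/plasma cells. Markers were counted without thinning. Macrophage-gate cells with 3 or more had median depths of 18946 UMIs in KO and 6299.5 UMIs in WT. Those with none had 11793 UMIs in KO and 8522 UMIs in WT. For dendritic-gate cells the medians were 30127.5 KO and 30238 WT UMIs with 3 or more, against 21545 KO and 22512 WT UMIs with none. The part of depth was not tested. Without any of them, Il7r stood at 39.9 CPM in 67 KO cells and had 2 UMIs in 17 WT cells. With 3 or more, Il7r stood at 823 CPM in 101 KO and 1079 CPM in 92 WT cells. Il2rb had 2 KO and 4 WT UMIs in cells without a marker, and 121 CPM in KO and 240 CPM in WT cells with 3 or more. Il9r had no UMI in cells of either library without a marker.

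Il10ra ran the other way. Macrophage-gate cells without a lymphoid marker had 205 CPM (149 UMIs) in KO and 307 CPM (44 UMIs) in WT, against 93.7 CPM in KO and 52.2 CPM in WT cells with 3 or more. Il4ra lay between 107 and 117 CPM in KO and between 61.3 and 112 CPM in WT over the 3 levels of marker count. In cells without a marker, Il21r had 43 UMIs in KO (59.2 CPM) and 2 UMIs in WT.

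Dendritic-gate cells showed the same for Il7r. It stood at 58.4 CPM in 50 KO cells and had 3 UMIs in 11 WT cells without a lymphoid marker, and at 407 CPM in 28 KO and 398 CPM in 13 WT cells with 3 or more. Il2ra, Il2rb and Il9r had no UMI in cells without a marker in either library. Il10ra stood at 46.3 CPM in KO and 56.9 CPM in WT cells without one.

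In the macrophage gate 1 of 8 chains was called higher and 1 lower, where 12.4% of 10071 genes were called higher, 8.48% lower and 20.9% in either direction. Il9r was the higher one, with 42 KO and 3 WT UMIs and a log2 ratio of 2.22 (0.58 to 4.56). Of these UMIs, 38 in KO and 2 in WT lay in cells with 3 or more lymphoid markers. Il2rb was the lower one, at 82.0 CPM in KO and 182 CPM in WT, a log2 ratio of -1.15 (-1.41 to -0.89). Over all myeloid cells 1 of 8 chains was called higher (Il9r, 1.98) and 2 lower (Il7r, -0.76, and Il2rb, -1.63), where 10.1% of 11021 genes were called higher, 9.26% lower and 19.4% in either direction. Summed T cell markers in the macrophage gate stood at 367 CPM in KO and 2223 CPM in WT. Without cells with 3 or more lymphoid markers, a choice made after seeing the data, the macrophage ratio was -2.15 for Il2rb. For Il9r it was 0.35, but most of its UMIs lay in the removed cells. Those left were below the UMI minimum for a ratio, so the Il9r call was not tested by this value. With graph clusters in place of the gate, the ratio was -0.40 for Il2rb in macrophages and 0.12 for Il7r over all myeloid cells. The part of lymphoid transcripts in these calls was not tested otherwise. Doublets were called in 0.624% of the barcodes that passed the gene and mitochondrial limits, over both libraries. Doublets that were not called may remain in this gate, and their part was not tested.

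In B/plasma cells 2 of 7 chains were called lower and 0 higher, where 4.54% of 8803 genes were called lower, 17.1% higher and 21.6% in either direction; centred on the median, 8.53% were lower. Il21r had 17 KO and 53 WT UMIs and a log2 ratio of -1.74 (-2.62 to -0.93), and Il2ra had 13 KO and 25 WT UMIs and one of -1.04 (-2.13 to -0.02). The Il2ra ratio was -0.15 with at least 2 markers per gate, -2.56 with equal weight for each cell and -0.68 (-1.81 to 0.42) in cluster 9, without a call there. Cluster 9, led by Jchain and Igkc, supplied 93.3% of KO and 85.7% of WT cells of the gate, and cluster 16, led by Ms4a1 and with Pax5 among its leading genes, 4.24% of KO and 12.8% of WT cells. Il21r had 1 KO and 33 WT UMIs in cluster 9. Summed T cell markers stood at 102 CPM in KO and 243 CPM in WT B/plasma cells, and their part in these values was not tested.

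**Figure D5:**
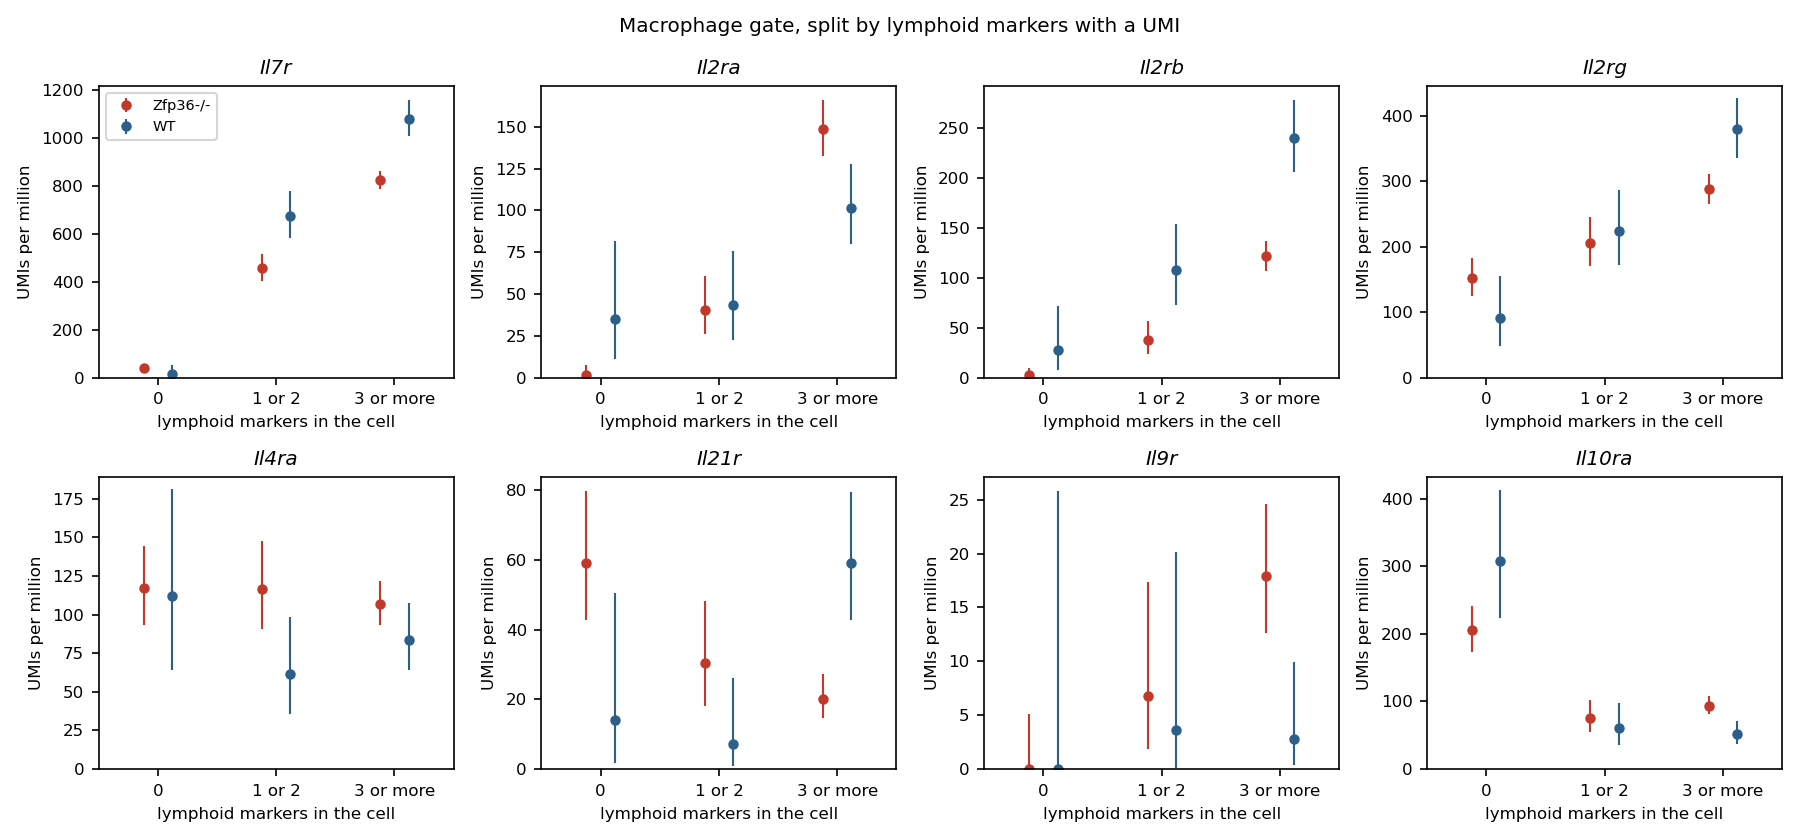
Level in CPM (linear axes) of each chain in the macrophage gate, split by how many of 12 lymphoid markers had a UMI in the cell, for the KO library (red, left) and the WT library (blue, right), with exact Poisson 95% intervals. Il7r, Il2ra, Il2rb and Il2rg were higher with 3 or more lymphoid markers than with none in both libraries, and Il10ra was highest with none.

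In ILCs, chains of one receptor were detected in the same cell about as often as the product of their single shares. At 2000 UMIs, Il7r and Il2rg were both found in 60.2% of KO and 63.9% of WT ILC3, where the products were 60.0% in KO and 63.3% in WT. Il2rb and Il2rg were both found in 43.1% of KO and 34.9% of WT ILC1/NK cells, with products of 44.5% in KO and 33.6% in WT. Il2ra and Il2rb were both found in 4.65% of KO and 4.71% of WT ILC2, with products of 4.73% in KO and 5.91% in WT. The product lay inside the interval of the joint share for each of these, and for all 4 pairs of chains examined in every ILC gate and every T cell gate of 30 or more cells. Myeloid cells differed: Il7r and Il2rg were both found in 15.6% (12.2 to 19.5%) of KO and 32.6% (25.6 to 40.1%) of WT myeloid cells, above products of 9.99% in KO and 24.3% in WT. Il2ra and Il7r exceeded their product there in both libraries too.

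The rest of the pathway was followed as a list of 27 genes: 8 ligands, 4 partner chains, 8 kinases and STATs, and 7 target and feedback genes. In ILC2, 4 of the 22 genes that passed the filter were called higher and 3 lower, where 14.8% of all genes tested were higher and 2.88% lower, with a median log2 ratio of 0.33 against 0.18 over all genes. In ILC3, 4 of 22 were higher and 2 lower, where 13.6% of all genes were higher and 4.01% lower, with a median of 0.19 against 0.16. In ILC1/NK cells 5 of 19 were higher and 0 lower, where 11.2% of all genes were higher and 3.64% lower, with a median of 0.26 against 0.12. The partner chains gave no call in these classes: 3 of 4 passed in each, and in ILC2 Crlf2, the TSLP chain that pairs with Il7r, stood at 57.2 CPM in KO and 61.7 CPM in WT, and Il10rb, the partner of Il10ra, at 38.0 CPM in KO and 40.3 CPM in WT.

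Stat3, a transcription factor that acts downstream of IL-21 and IL-10, was called higher in ILC2 (149 CPM in KO and 92.0 CPM in WT) and in ILC3 (156 CPM in KO and 83.2 CPM in WT). Among feedback inhibitors, Cish stood at 261 CPM in KO and 152 CPM in WT ILC2 (0.78), Socs3 had 128 KO and 19 WT UMIs in ILC2 (2.05), and Socs2 stood at 760 CPM in KO and 359 CPM in WT ILC1/NK cells (1.08). Socs2 is among the leading genes of cluster 6, which supplied more of the KO than of the WT ILC1/NK gate. Jak3, the kinase of the common gamma chain, had 39 KO and 22 WT UMIs in ILC1/NK cells (1.06), and Stat5b had 63 KO and 48 WT UMIs (0.62).

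Of the ligands, Il2 was called lower in ILC2, at 26.4 CPM in KO and 43.1 CPM in WT, and in ILC3, at 13.4 CPM in KO and 28.1 CPM in WT. Il15 was lower in ILC3, with 29 KO and 67 WT UMIs, and in ILC2, with 14 KO and 24 WT UMIs. Il4 was lower in ILC2, at 227 CPM in KO and 347 CPM in WT, and higher in ILC3, with 28 KO and 7 WT UMIs, and in ILC1/NK cells, with 64 KO and 41 WT UMIs. Il7 was higher in ILC3, with 24 KO and 9 WT UMIs. Summed T cell markers stood at 1457 CPM in KO and 2220 CPM in WT cells of the ILC2 gate, and at 898 CPM in KO and 1208 CPM in WT cells of the ILC3 gate; their part in the ligand values was not tested.

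The genes most like each chain were ranked by Pearson correlation of log2(CPM + 10) over 19 gate and library points, among 5697 genes. Points of one library share its depth and free RNA, and 3 of the gates are subsets of ILC3, so the values are descriptions. The closest gene was Znrf1 for Il7r (0.98), Mgat5 for Il2ra (0.97), Cd226 for Il2rb (0.96) and H2-Q6 for Il2rg (0.98). It was Cbl for Il4ra (0.96), Pmepa1 for Il21r (0.95), Rxrg for Il9r (0.91) and Malt1 for Il10ra (0.90). The second for Il2ra was Rora (0.97), and the second for Il9r was Homer2 (0.91), which with Rxrg leads cluster 0.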

How the data were processed

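The deposited files held gene-by-cell UMI counts from 10x Genomics 3' libraries, made by the authors with Cell Ranger 3.1.0 on mm10 per the file headers and the submitters' processing notes, with no normalization. The libraries held 27733804 (Zfp36-/-) and 24721524 (WT) UMIs over 3522 and 3593 barcodes. Cells with under 500 genes or over 10% mitochondrial UMIs were left out. So were doublets predicted by Scrublet, which were 0.150% of Zfp36-/-, 1.09% of WT and 0.624% of both among barcodes within these limits. The caller marks only doublets of unlike cells, and more may remain than were called. Gates needed 3 markers of a list, applied to macrophage, dendritic, granulocyte/monocyte and B/plasma cells first, then to T cells by Cd3e, Trac and Trdc, then to ILCs; ungated cells were left out. The receptors, gene lists and gates were chosen with earlier results of these data known. The rule for named genes was all 8 receptors, pathway genes past the call rule, and the 3 most correlated genes of each receptor among genes with at least 1000 UMIs; the first of these, and 2 others, are printed. One of the pathway genes past the call rule is counted with its list but not reported here. The lymphoid marker split, the within-cluster values and the centred all-gene split were added after the levels were seen. Summed counts were divided by gate totals. Intervals were exact Poisson, Clopper-Pearson or binomial-split intervals at 95%; a count of 0 allows up to 3 counts. Shares used 1 random thinning to 2000 UMIs. Clusters were Leiden clusters (resolution 1, 30 components, 2000 variable genes) made without the 8 receptors. The ratio rule was tested on simulated data. A Pearson correlation used log2 values with a pseudocount of 10 CPM. Alternatives were 2 or 4 markers, median-ratio size factors, equal weight for each cell, no cell filter, no Y-linked cells, no richest 5% of cells, clusters in place of gates, other thinning, other UMI minimums and a 2-fold rule. Analyses used Python 3.11.15, scipy 1.17.1, pandas 2.3.3 and scanpy 1.11.5.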

Additional observations from a re-analysis of the deposited data

How the results depend on the processing

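No paired analysis was possible because there was 1 library per genotype, and for the same reason no replicate could be left out. Calls were counted per chain and gate, so a chain can count more than once, and the 3 ILC3 subsets repeat cells of the ILC3 gate. In the main setting, 14.8% (ILC1/NK) to 18.2% (LTi) of all genes were called in either direction in these gates. The count of calls over the 6 ILC gates was 4 of 34 ratios. That count was also 4 with median-ratio size factors, at least 2 markers, all barcodes or no Y-linked cells. It was 2 with at least 4 markers, 2 without the 5% richest cells and 2 with graph clusters in place of gates. Over the macrophage, myeloid and B/plasma gates, where myeloid cells include the macrophages, the count was 7, against 13 with at least 2 markers and 4 with graph clusters. In the main setting the ratios numbered 8 in macrophages, 8 in myeloid cells and 7 in B/plasma cells. Of all genes, 20.9% in macrophages, 19.4% in myeloid cells and 21.6% in B/plasma cells were called in that setting. The shares of all genes under the other settings are not given beside these counts, here or for the ILC gates. A change in count between settings therefore cannot be read as a result about the chains. Il7r in myeloid cells turned from a log2 ratio of -0.76 to 0.12 with graph clusters. Il4ra in LTi cells was 0.54 with graph clusters and Il10ra in ILC1/NK cells -0.23. With at least 4 markers Il21r in ILC1/NK cells was -0.58 and Il10ra there -0.63, and without the 5% richest cells Il21r was -1.73. Il2rb in macrophages was -0.40 with graph clusters. Without macrophage-gate cells with 3 or more lymphoid markers, chosen after seeing the data, Il2rb in that gate was -2.15. Il9r there was 0.35, from fewer UMIs than the minimum for a ratio, so its call was not tested by that value. With at least 7 macrophage markers Il9r was 2.07 and Il2rb -0.66. Genes called in either direction numbered 1849 in ILC2, 1884 in ILC3 and 1151 in ILC1/NK cells, against 1013, 967 and 189 at a minimum of 200 UMIs and 597, 583 and 481 at 2-fold. The cause of these moves was not tested, except that a higher minimum tests fewer genes. Depth limits Il21r, Il9r and Il10ra in ILC3, each with at most 8 UMIs in a library.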
